A study of Mus musculus with 4 samples.

Results

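Some H3K4me3 regions held 1 listed peak after one treatment and 2 or more separate peaks after the other. They were found by merging the H3K4me3 peak lists of an LPS and a PBS library wherever peaks overlapped or touched, on chromosomes 1 to 19 and X. A merged region was a member when it was shorter than 4 kb, held 100 or more tags in all, and had exactly 1 peak of one list and at least 2 of the other. Of 36628 merged regions, 22203 held peaks of both lists, 17193 of these met the limits on length and tags, and 794 were members. In 515 members the LPS list held the separate peaks (called LPS split below), and in 279 the PBS list did (called PBS split). The other regions within the limits were 16353 with 1 peak of each list and 46 with several of each. Members were thus chosen by the number of peaks, the tags and the length that the lists give, and these values are given as a description.

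Macrophages recruited to the peritoneum with thioglycollate broth were taken from C57BL/6 mice of 8 weeks and grown as adherent cultures. They received LPS, the bacterial cell wall component sensed by Toll-like receptor 4, or PBS, in each case for 24 h. The labels name no genetic change and do not say how many mice gave cells. H3K4me3 and H3K9me3 were each profiled by chromatin immunoprecipitation and sequencing in 1 library per treatment, so there were no replicates and no difference between treatments could be tested. The H3K4me3 libraries held 26748289 filtered tags for LPS and 29681491 for PBS, and 14.0% and 17.8% of these tags lay in 28478 and 31368 peaks. The caller worked with a fragment length of 149 bp in LPS and 142 bp in PBS. Of 8 macrophage marker genes, 4 had an end within 1 kb of the centre of a region with 1 peak of each list. The same held for 1 of 7 T cell, 1 of 6 B cell and 0 of 8 neutrophil genes. It held for 1 of 7 eosinophil and mast cell genes and 0 of 9 mesothelial and fibroblast genes. No gene of these marker lists had an end within 1 kb of the centre of a member's gap. All intervals below are 95% intervals that cover counting error or the spread among regions only.

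H3K4me3 is placed on nucleosomes around active gene starts by SET1 and MLL complexes. The stretch just upstream of an active start is usually poor in nucleosomes, because transcription factors and the polymerase occupy it. The mark therefore often forms a pair of summits around the start, and the summit over the first nucleosomes of the transcribed gene is commonly the taller one. A peak caller lists such a pair as 1 peak or as 2, according to how far the signal between the summits stays above the caller's threshold. In macrophages the mark covers the promoters of constantly active genes and of many genes of inflammation.

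The bases between the separate peaks are the gap. Promoters whose gap held the start itself are shown first, because the gap can there be read against the sequence. Each is the RefSeq promoter window of build GRCm38.p6 (the build that mm10 names), 250 bases before the start and 50 from it on, 5′ to 3′ on the strand of the gene, with the bases of the gap in capitals. Fbxo36, Mastl, Rap2b and H3f3a are named genes of the rule given with the methods. Ndufaf3 and Pkd1 had the most tags among the remaining members of their direction whose gap held a listed start, and were added after their values were seen.
Fbxo36 (LPS split, chr1:84839591-84839890, plus strand): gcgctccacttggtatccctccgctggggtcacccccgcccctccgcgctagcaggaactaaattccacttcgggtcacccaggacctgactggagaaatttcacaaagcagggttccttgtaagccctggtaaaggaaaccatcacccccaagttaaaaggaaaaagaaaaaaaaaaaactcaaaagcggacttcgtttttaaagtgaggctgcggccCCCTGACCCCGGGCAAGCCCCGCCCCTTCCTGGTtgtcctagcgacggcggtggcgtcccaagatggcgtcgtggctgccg
Ndufaf3 (LPS split, chr9:108567387-108567686, minus strand): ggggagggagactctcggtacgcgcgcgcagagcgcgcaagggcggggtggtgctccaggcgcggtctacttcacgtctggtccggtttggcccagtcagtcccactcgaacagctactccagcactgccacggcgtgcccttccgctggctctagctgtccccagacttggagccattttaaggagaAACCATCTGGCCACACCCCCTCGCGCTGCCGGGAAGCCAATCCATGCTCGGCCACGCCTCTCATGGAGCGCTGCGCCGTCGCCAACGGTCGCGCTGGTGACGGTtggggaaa
Mastl (LPS split, chr2:23155975-23156274, minus strand): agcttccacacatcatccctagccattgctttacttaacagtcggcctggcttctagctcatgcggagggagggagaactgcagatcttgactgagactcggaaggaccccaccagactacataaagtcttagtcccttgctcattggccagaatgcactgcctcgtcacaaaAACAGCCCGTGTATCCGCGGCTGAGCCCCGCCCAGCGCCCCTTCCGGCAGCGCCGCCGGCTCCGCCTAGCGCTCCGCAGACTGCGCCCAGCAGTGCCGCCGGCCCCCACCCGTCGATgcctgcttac
Rap2b (PBS split, chr3:61364257-61364556, plus strand): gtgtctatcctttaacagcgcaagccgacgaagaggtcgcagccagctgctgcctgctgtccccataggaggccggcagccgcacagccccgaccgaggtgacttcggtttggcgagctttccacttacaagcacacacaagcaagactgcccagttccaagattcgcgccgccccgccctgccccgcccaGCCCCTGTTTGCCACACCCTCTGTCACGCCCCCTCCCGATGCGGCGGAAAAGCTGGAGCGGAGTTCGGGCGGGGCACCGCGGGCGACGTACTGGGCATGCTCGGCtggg
H3f3a (PBS split, chr1:180813556-180813855, minus strand): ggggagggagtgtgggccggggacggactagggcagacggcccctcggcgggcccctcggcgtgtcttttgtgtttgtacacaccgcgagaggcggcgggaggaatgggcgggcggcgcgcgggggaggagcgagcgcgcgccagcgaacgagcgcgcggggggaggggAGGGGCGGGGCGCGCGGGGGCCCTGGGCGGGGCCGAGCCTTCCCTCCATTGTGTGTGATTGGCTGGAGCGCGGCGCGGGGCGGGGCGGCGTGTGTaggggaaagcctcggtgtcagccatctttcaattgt
Pkd1 (PBS split, chr17:24549700-24549999, plus strand): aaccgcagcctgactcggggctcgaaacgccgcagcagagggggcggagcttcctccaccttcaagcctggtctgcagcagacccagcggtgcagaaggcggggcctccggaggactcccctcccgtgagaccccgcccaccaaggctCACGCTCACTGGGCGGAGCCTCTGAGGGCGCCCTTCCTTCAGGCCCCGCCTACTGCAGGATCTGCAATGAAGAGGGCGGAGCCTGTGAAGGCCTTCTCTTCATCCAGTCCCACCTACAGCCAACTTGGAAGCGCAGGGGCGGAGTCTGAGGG

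In each of these the capitals begin upstream of the start and end past it. The gap was 34 bp at Fbxo36, which encodes an F-box protein, 104 bp at Ndufaf3, an assembly factor of respiratory complex I, and 117 bp at Mastl, the Greatwall kinase of mitosis. It was 105 bp at Rap2b, a small GTPase, 95 bp at H3f3a, which encodes the replacement histone H3.3, and 169 bp at Pkd1, which encodes polycystin-1 and whose gap ran 17 bases past the window. The GC content of the windows was 57.0% at Fbxo36, 66.0% at Ndufaf3, 61.7% at Mastl, 66.3% at Rap2b, 74.0% at H3f3a and 66.7% at Pkd1. The motif CCAAT, bound by NF-Y, was present on one of the strands in the windows of Ndufaf3, Mastl and H3f3a and not in those of Fbxo36, Rap2b and Pkd1.

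The first comparison asked how often a region was split in each direction. LPS split regions were 3.0% of the 17193 regions (2.75 to 3.26) and PBS split regions were 1.62% (1.44 to 1.82), so 64.9% of the members (61.4 to 68.2) were LPS split. This excess depended on the merging. With peaks up to 100 bp apart joined as well, there were 558 LPS split and 524 PBS split regions, and with peaks up to 300 bp apart joined there were 621 and 744, so the order of the directions turned. Joining across such distances also admits regions in which the single peak does not reach across the gap. Nearly all members had 2 peaks of the split library, and 9 LPS split and 2 PBS split members had 3.

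The excess of LPS split regions was seen among the regions with many tags. Among regions with 100 to 200 tags, 1.22% were LPS split and 1.37% PBS split. With 200 to 400 tags the shares were 3.28% and 1.85%, with 400 to 800 tags 3.67% and 1.69%, and with 800 or more tags 4.45% (3.54 to 5.50) and 1.33% (0.857 to 1.98). Longer regions were split more often in both directions. Of regions under 1 kb 0.154% were LPS split and 0.0513% PBS split, while at 3 to 4 kb the shares were 6.35% and 3.29%. The median length was 2177 bp in LPS split regions and 2027 bp in PBS split regions, against 1571 bp in regions with 1 peak of each list. The fewer tags of the LPS library and its smaller share of tags in peaks accompany these counts, and their part in the excess was not tested.

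At the limits of the rule the values ran on without a step. The LPS split member with the fewest tags had 104, and the nearest region left out had 96, while in the PBS split direction the values were 100 and 98. The longest LPS split member was 3992 bp and the next region left out 4031 bp, and in the PBS split direction they were 3936 bp and 4141 bp. Regions that failed only on tags numbered 6 LPS split and 8 PBS split, and those that failed only on length 63 and 26.

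The level of the mark differed little between the directions. The median member had 174 tags in the LPS library and 256 in the PBS library when LPS split, and 152 and 201 tags when PBS split. As a log2 ratio of LPS to PBS tags, each scaled to its filtered library, the median was -0.41 in LPS split regions (-0.43 to -0.39), -0.32 in PBS split regions (-0.36 to -0.30), -0.34 in regions with 1 peak of each list and -0.31 over all regions of both lists. Relative to that last value the medians were -0.10 and -0.02. Tags per covered kb, which allow for the length called, gave -0.24 in LPS split regions, -0.18 in PBS split regions and -0.19 in regions with 1 peak of each list. A ratio above 0 means more tags per filtered tag in LPS. It was found in 46 of the LPS split (8.93%) and 50 of the PBS split regions (17.9%). Regions with 1 peak of each list had it in 14.6%. Only tags inside peaks were counted, so tags in a gap are missing from the split library. Whether the direction of the split follows the tag level was not tested.

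**Figure D1:**
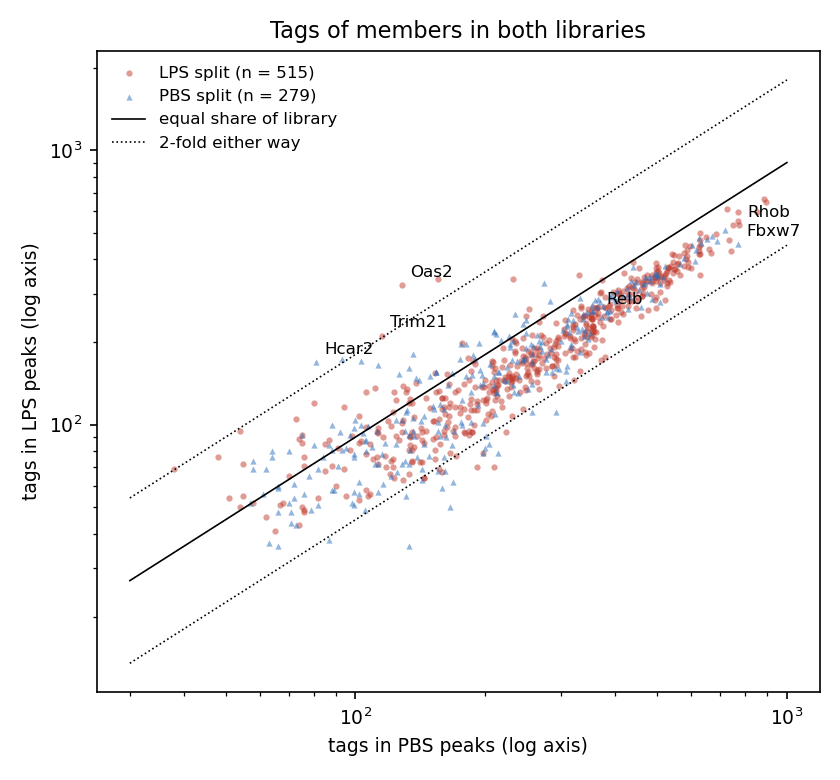
Tags of each member in LPS peaks (vertical, log axis) and in PBS peaks (horizontal, log axis), with LPS split members as red circles and PBS split members as blue triangles. The solid line marks an equal share of both filtered libraries and the dotted lines a 2-fold difference; most members of both directions lie between the solid and the lower dotted line, and Oas2, Trim21 and Hcar2 lie at or above the upper one.

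Only a few members reached a 2-fold difference in tags. A ratio of 2 or more in favour of LPS was found in 4 LPS split and 2 PBS split members, and one of 2 or more in favour of PBS in 9 LPS split and 15 PBS split members. Over all 17193 regions 0.547% passed this limit towards LPS and 3.13% towards PBS. Towards LPS the shares were 0.777% of LPS split and 0.717% of PBS split members, and towards PBS 1.75% and 5.38%.

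The gaps were short. The median longest gap was 83 bp in LPS split members (77 to 91, quartiles 46 and 122.5) and 60 bp in PBS split members (47 to 68, quartiles 21 and 104). Gaps ran up to 1048 bp in LPS split and 805 bp in PBS split members. A gap of at most 10 bp was found in 30 LPS split members (5.83%) and 37 PBS split members (13.3%). A gap of at most 200 bp was found in 89.3% and 94.3%. Most gaps were thus shorter than the fragments of 149 and 142 bp that the caller assumed, and the PBS split gaps included more that were only a few bases wide.

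**Figure D2:**
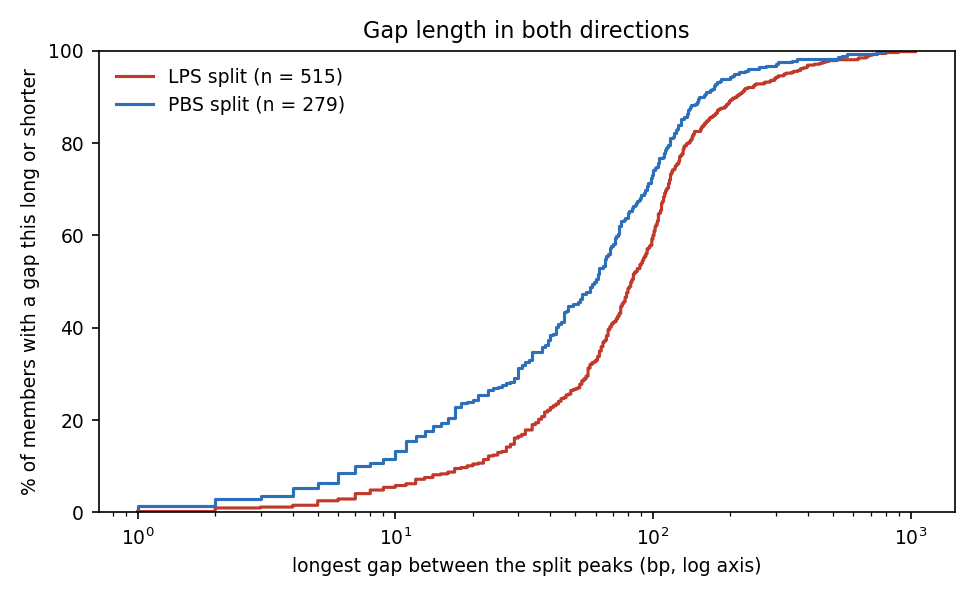
Share of members (vertical, percent) whose longest gap was as long as the value on the horizontal axis (bp, log axis) or shorter, for 515 LPS split and 279 PBS split members. The LPS split curve lies to the right over most of its length, with a median of 83 bp against 60 bp.

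The separate peaks were unequal to a like degree in both directions. The stronger peak held a median of 64.4% of the split library's tags in LPS split members (quartiles 56.3 and 72.4) and 63.7% in PBS split members (55.8 and 71.7). The weaker peak was often near the caller's threshold, a score of 50, where the score is minus 10 times the base 10 logarithm of the caller's p-value. Its median score was 83.5 in LPS split and 78.5 in PBS split members, and it was under 100 in 335 (65.0%) and 173 (62.0%). The single peak of the other list had a median score of 556 in LPS split members, where it was a PBS peak, and 260 in PBS split members, where it was an LPS peak. These scores are the authors' and are not compared between lists. The summit of the single peak lay inside the gap in 2 LPS split and 1 PBS split members. It lay on the side of the gap with more of the split library's tags in 399 (77.5%) and 212 (76.0%). Its median distance from the gap was 327 bp and 320 bp. A gap takes up a small part of the single peak, so the low counts inside it carry little.

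The second comparison set the gaps against the ends of protein-coding genes, which the rule had not used. The gap centre lay within 500 bp of a gene end in 252 LPS split members (48.9%, 44.5 to 53.3) and 111 PBS split members (39.8%, 34.0 to 45.8). The centre of regions with 1 peak of each list did so in 34.4%, their LPS summit in 49.4% and their PBS summit in 50.4%. With a minimum of 200 tags the shares of gap centres were 52.1% in LPS split and 48.6% (41.8 to 55.5) in PBS split members, and with peaks up to 300 bp apart joined they were 43.2% and 44.8%. The difference between the directions thus narrowed with more tags and turned with the wider merging. Within 250 bp the gap centres lay in 43.9% of LPS split and 32.6% of PBS split members, against 15.5% of region centres. Summits were not counted at this distance from gene ends. The median distance to the nearest end was 541.5 bp in LPS split members (322.5 to 713), 1077 bp in PBS split members (752 to 1536) and 748 bp for region centres.

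The side of the start separated gaps from summits. Strand and start were known for the genes of the RefSeq promoter table, which covers 17274 protein-coding genes, so shares near a start are lower bounds. Of 497 LPS split members on its chromosomes, 193 (38.8%, 34.5 to 43.3) had the gap centre 0 to 250 bp upstream of the nearest start, and of 274 PBS split members 83 (30.3%, 24.9 to 36.1) did. Among 15930 regions with 1 peak of each list, 5.01% of centres, 4.38% of LPS summits and 4.25% of PBS summits lay there. The members' own region centres lay there in 13.1% of LPS split and 10.9% of PBS split members. Gap centres were rare just downstream: 8 LPS split (1.61%) and 3 PBS split members (1.09%) had one at 100 to 250 bp downstream, where 22.7% of LPS and 23.3% of PBS summits of regions with 1 peak of each list lay.

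The window was narrow. The fullest 50 bp bin was the one that ends at the start, with 81 LPS split gaps (16.3%) and 34 PBS split gaps (12.4%). Of the 193 and 83 gaps upstream of a start, 183 and 80 were centred within 150 bp of it. Summits of regions with 1 peak of each list were most frequent at 150 to 200 bp downstream, with 9.78% of LPS and 9.64% of PBS summits. Gaps and summits thus peaked on opposite sides of the start, and the position was alike in both directions. A gap is a stretch where the split library had no called peak. The rarity of gaps where summits gather is therefore in part fixed by how a gap is defined. The difference in share between the directions narrowed under other settings: with a minimum of 200 tags the shares 0 to 250 bp upstream were 42.0% in LPS split and 38.5% in PBS split members, and with peaks up to 300 bp apart joined 33.6% and 32.8%. When only peaks with a score of 100 or more were used, 185 LPS split and 112 PBS split members were found by the same rule, and 52.5% and 50% of their gap centres lay 0 to 250 bp upstream.

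**Figure D3:**
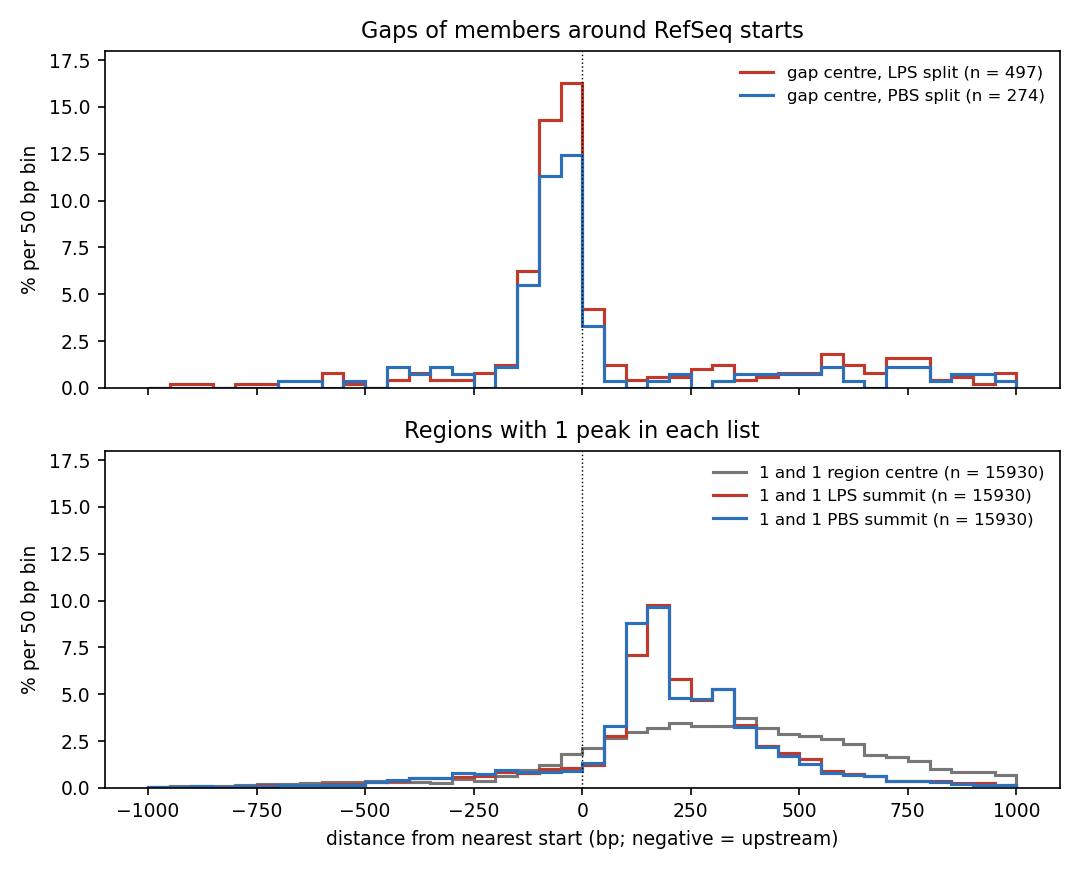
Position of gap centres around the nearest RefSeq start (upper panel, 497 LPS split and 274 PBS split members) and of region centres and summits of 15930 regions with 1 peak of each list (lower panel), as percent per 50 bp bin (vertical) against distance from the start in bp (horizontal, negative upstream). Gap centres are highest just upstream of the start, at 16.3% and 12.4% per bin, and summits at 150 to 200 bp downstream.

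Starts were next sorted by their neighbours. A start was called divergent when a start on the opposite strand lay within 1 kb, upstream or downstream, and otherwise unidirectional. Only listed protein-coding starts were looked at, so a start called unidirectional may have an unlisted opposite one. The 193 LPS split gaps comprised 140 at unidirectional and 53 at divergent starts, and the 83 PBS split gaps 63 and 20. At unidirectional starts the median gap was 83 bp in LPS split and 77 bp in PBS split members. Counted from the start, with negative values upstream, its edges had medians of -99.5 and -17.5 bp in LPS split members and -113 and -25 bp in PBS split members. The start itself fell inside 72 of the 193 and 25 of the 83 gaps.

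The peak over the gene was the larger one at unidirectional starts. It held a median of 70.7% of the split tags in LPS split and 70.1% in PBS split members, and more tags than the upstream peak in 118 of 140 (84.3%) and 56 of 63 (88.9%). On the same count the summits of the pair had medians of -335.5 and 259 bp in LPS split and -329 and 197 bp in PBS split members. The single summit of the other library had medians of 189 bp and 197 bp, and was downstream in 112 of 140 and 52 of 63. Divergent starts showed no such lean. There the nearest start's side held a median of 44.0% of the tags in LPS split and 49.9% in PBS split members. That side held more tags than the other in 20 of 53 and 10 of 20.

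**Figure D4:**
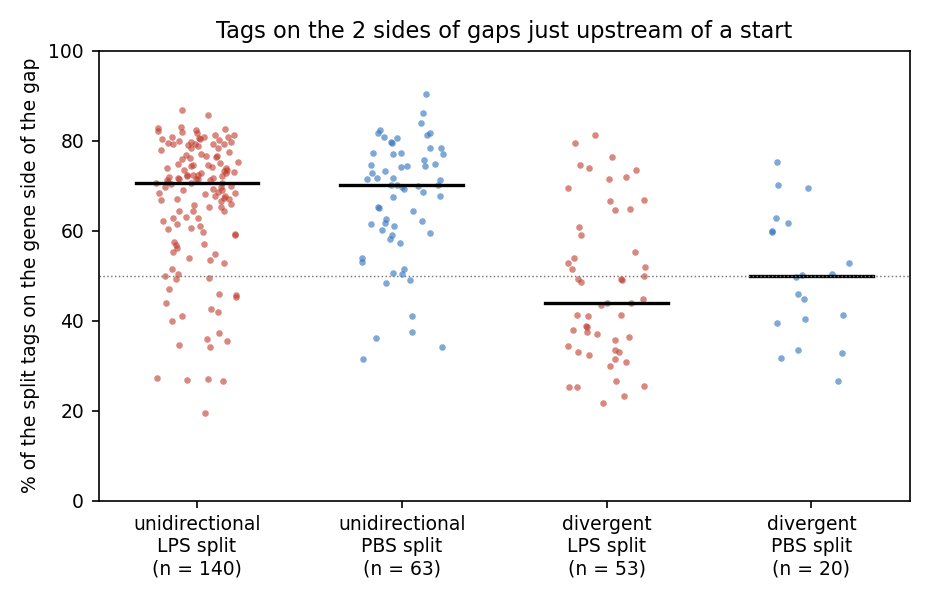
Percent of the split library's tags that lay in the peak on the gene side of the gap (vertical), for gaps centred 0 to 250 bp upstream of a start; each point is a member and each bar a median. Unidirectional starts have medians of 70.7% (LPS split) and 70.1% (PBS split), and divergent starts 44.0% and 49.9%.

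The 4 named members of each direction with the most tags among those with a gap 0 to 250 bp upstream of a start serve as examples, so the place of their gap is not a finding. At Fbxo36 the LPS peaks held 412 and 183 tags and the PBS peak 772, and the gap was chr1:84839810-84839843. At B3gnt2, which extends poly-N-acetyllactosamine chains, the LPS peaks held 167 tags upstream and 383 over the gene and the PBS peak held 771, with a gap of 64 bp centred 59.5 bp upstream. At Rhob, a small GTPase of endosomes and actin, the LPS peaks held 105 and 428 tags and the PBS peak 774, with a gap of 90 bp. The upstream LPS peak at Rhob had a score of 56.6, close to the threshold. At Sap30l, a subunit of the SIN3 histone deacetylase complex, the LPS peaks held 190 and 343 tags and the PBS peak 752, with a gap of 131 bp. In 3 of these 4 the larger LPS peak lay over the gene, and at Fbxo36 it lay upstream.

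The 4 PBS split members were chosen in the same way. At Rap2b the LPS peak held 466 tags and the PBS peaks 173 upstream and 517 over the gene. At Mllt3, a chromatin reader of the super elongation complex, the LPS peak held 479 tags and the PBS peaks 143 and 482, with a gap of 13 bp. At H3f3a the LPS peak held 433 tags and the PBS peaks 304 and 310. At the divergent pair Polr1d, a subunit shared by RNA polymerases I and III, and Lnx2, a ubiquitin ligase, the LPS peak held 458 tags and the PBS peaks 421 on the Polr1d side and 211 on the Lnx2 side.

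**Figure D5:**
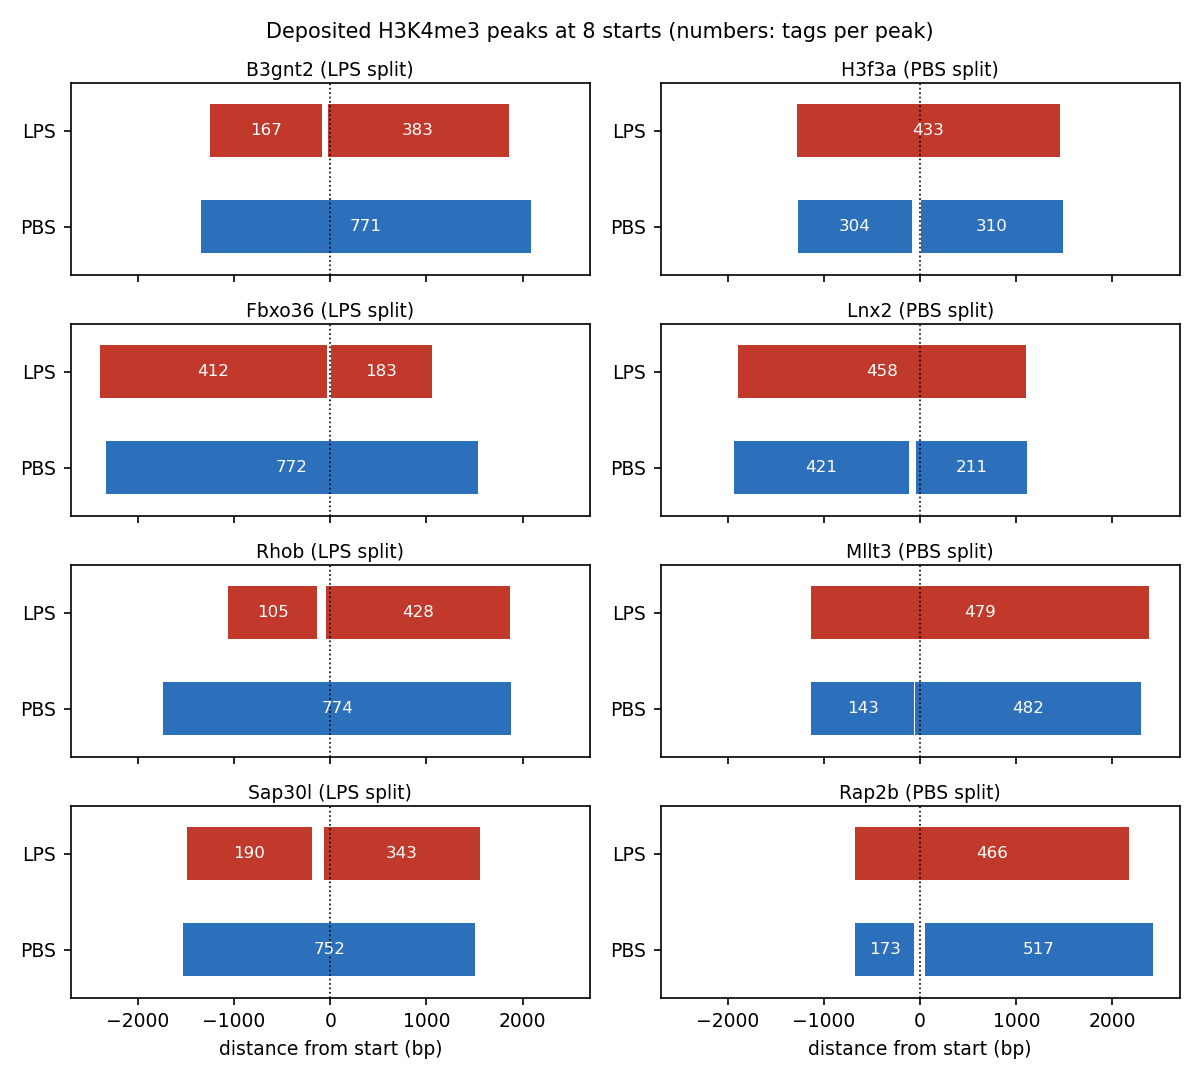
Deposited H3K4me3 peaks as bars at 4 LPS split starts (left) and 4 PBS split starts (right), with the LPS library above the PBS library, against distance from the start in bp (negative upstream); numbers are tags per peak. The members were chosen for a gap 0 to 250 bp upstream of the start (dotted line). The outer ends of the peaks differ by under 250 bp between the libraries except at the upstream end of Rhob and the downstream end of Fbxo36.

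Among the other LPS split members with the most tags, the region of Rmi1, part of the complex that resolves DNA crossovers, and Hnrnpk, an RNA-binding protein, had 666 tags in LPS and 885 in PBS with a gap of 22 bp. The region of Qk, an RNA-binding protein, and Gm46608 had 469 and 733 tags with a gap of 100 bp, and that of Gm42517 had 612 and 726 with a gap of 4 bp whose centre was at -588.5 bp from the start. Of the other PBS split ones, Fbxw7, the substrate receptor of a ubiquitin ligase, had 455 tags in LPS and 769 in PBS with a gap of 42 bp centred 418.5 bp from the gene's end. The LPS peak there met the upstream PBS peak only in its last bases, so this member was not 1 peak broken in the middle. Such contact at an edge was not limited to Fbxw7. It was seen in both directions, for example in the PBS split regions nearest to Ntn1 and A630001G21Rik and the LPS split region nearest to Gm31160. Members of this kind were not counted. Brpf3, a scaffold of a histone acetyltransferase complex, had 485 and 670 tags with a gap centred 541.5 bp downstream of the start, and Pcbp1, a poly(C)-binding protein, 474 and 652 with a gap centred 1536.5 bp downstream. Mgat2, an N-glycan enzyme, and its neighbour Rpl36al, a ribosomal protein gene, shared a region of 395 and 611 tags. PBS had more tags in every member named in this paragraph except the one nearest to Gm31160.

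Some gaps were long. Among members with a gene end within 1 kb of the gap centre, the longest in LPS split members were 1048 bp at Efcab11 and Tdp1, a repair enzyme of topoisomerase adducts (180 tags in LPS, 342 in PBS), 672 bp at Sart3 and the iron-sulphur scaffold gene Iscu (375 and 591), 629 bp at Arhgef18, an exchange factor of small GTPases (64 and 144), and 625 bp at the cohesin gene Smc1a and Ribc1 (95 and 183). In PBS split members with such a gene end they were 544 bp at Hcar2, 364 bp at the homeobox gene Gsx1 (232 tags in LPS, 244 in PBS), 300 bp at the apelin receptor gene Aplnr (56 and 76) and 275 bp at 1700001O22Rik (140 and 164). The nearest gene end was 723 bp from the gap centre at Arhgef18, 913.5 bp at Hcar2 and 775.5 bp at Aplnr.

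Regions with 3 separate LPS peaks included a pair of histone genes. Cops5, the catalytic subunit of the COP9 signalosome, and Cspp1, a protein of centrosomes and cilia, shared LPS peaks of 108, 54 and 189 tags and a PBS peak of 564. H2ac13 and H2bc13, replication-dependent histone genes, shared LPS peaks of 94, 125 and 112 tags and a PBS peak of 444. Mastl and Yme1l1, a mitochondrial protease, shared LPS peaks of 85, 41 and 49 tags and a PBS peak of 265. The histone genes belong to families of similar copies, so their tags are less certain.

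Genes of macrophage activation were few among the members. Over all 21631 protein-coding genes, 417 (1.93%) had an end within 1 kb of an LPS split gap centre and 170 (0.786%) of a PBS split one. Of 41 interferon-stimulated genes 2 lay at LPS split gaps (Oas2 and Trim21) and 0 at PBS split gaps. With the same distance taken from the region centre, 22 lay at regions with 1 peak of each list. Of 31 NF-kB signalling genes 1 (Relb) lay at an LPS split gap and 0 at a PBS split gap. None of 34 inflammatory mediators, 22 antigen presentation genes, 16 alternative activation genes, 32 macrophage identity genes, 26 lysosome and phagocytosis genes or 12 SUN and LINC complex genes lay at a gap of either direction. In lists of this size, counts of 0 to 2 do not stand apart from the shares over all genes.

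The other lists held 0 to 3 such genes each. Of 79 cytosolic ribosome genes 2 lay at LPS split gaps (Rps25 and Rplp2) and 3 at PBS split gaps (Rps20, Rpl30 and Rpl37). The PBS split count is above the 0.786% over all genes but rests on 3 genes. Among 31 proteasome genes Psmd13, among 22 genes of LPS-linked metabolism Sdha, which encodes a subunit of succinate dehydrogenase, and among 17 H3K9 methylation genes Suv39h2, a heterochromatin methyltransferase, lay at LPS split gaps. Ppia, the cyclophilin A gene, and Sdha did among 26 housekeeping genes. Among 17 H3K4 methylation genes Wdr5, a core subunit of the complexes that write H3K4me3, lay at a PBS split gap. None of 14 nuclear lamina and envelope genes did in either direction.

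The 2 members on the interferon-stimulated list, Oas2 and Trim21, went against the common lean towards PBS in their tags. Members outside the list were not sorted by their response to interferon. Oas2, which makes the 2-5A signal on double-stranded RNA, had 323 tags in LPS, in peaks of 181 and 142, and 128 in PBS (chr5:120746627-120750333, log2 ratio 1.49). Its gap of 23 bp lay 821 bp inside the gene's nearer end, and the LPS peaks covered more ground, so that per covered kb the ratio was 0.25. Trim21, a cytosolic antibody receptor and ubiquitin ligase, had 211 tags in LPS, in peaks of 120 and 91, and 115 in PBS (log2 ratio 1.03), with a gap of 9 bp centred 713 bp downstream of the start. Per covered kb its ratio was -0.70, so the sign turned with the length called. Relb, the subunit of the non-canonical NF-kB pathway, had 256 tags in LPS and 364 in PBS (-0.36) with a gap of 112 bp. At Trim21 the separate LPS peaks reached beyond the PBS peak on both sides, and at Oas2 on 1 side, while on the other side the PBS peak reached farther.

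Hcar2, the receptor for niacin and hydroxybutyrate, was the PBS split member with the largest ratio. Its LPS peak held 169 tags and its PBS peaks 40 and 41 (chr5:123863420-123865589, log2 ratio 1.21, per covered kb 0.57). The PBS peaks had scores of 60.4 and 53.6, both near the threshold. The remaining members past 2-fold higher in LPS were the regions nearest to Fam3b and Gm31160 (LPS split) and Gm12250 (PBS split). Those at least 2-fold lower in LPS included the regions nearest to Wnt5a, a secreted Wnt ligand (70 tags in LPS, 191 in PBS), and Fcgr3, a low-affinity IgG receptor (94 and 223), which were LPS split. They also included the regions nearest to Sort1, a sorting receptor (36 and 133), and Slamf7, a leukocyte adhesion receptor (79 and 214), which were PBS split. Zinc finger genes were among them too: Zfp930 (64 and 144), LPS split, and Zfp442 (68 and 161) and Zfp235 (82 and 200), PBS split. The region nearest to Samd9l (63 and 143) was PBS split. The genes of all regions named here after Hcar2 were chosen after their values were seen, and they do not describe the set as a whole.

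Gaps away from gene ends made up the rest. The gap centre lay more than 1 kb from a protein-coding gene end in 194 LPS split and 142 PBS split members, and of these 142 and 93 lay inside a protein-coding gene. It lay more than 1 kb both from a gene end and from a listed start in 141 LPS split (27.4%, 23.6 to 31.4) and 120 PBS split members (43.0%, 37.1 to 49). These gaps were shorter, with medians of 69 bp and 45 bp, and their log2 ratios of LPS to PBS had medians of -0.34 and -0.21. In PBS split members the gaps 0 to 250 bp upstream of a start had a median of 77 bp (68 to 93) and the others on the table's chromosomes 46 bp (39 to 61).

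Promoter sequence, which the rule did not use, was compared for starts with a gap 0 to 250 bp upstream. Their windows had a median GC content of 63.3% in both directions, against 62.7% for starts in regions with 1 peak of each list and 56.7% for all 21045 windows. The observed over expected CpG ratio had medians of 0.842 in LPS split, 0.835 in PBS split, 0.782 in regions with 1 peak of each list and 0.574 in all windows. Members at starts thus had CpG-rich promoters like those of other regions with the mark. The motif GGGCGG, bound by Sp family factors, was found on either strand in 72.0% of LPS split and 75.9% of PBS split windows, against 69.3% and 46.7%. Within the 150 bases just upstream of the start it was found in 54.4% of LPS split and 71.1% of PBS split windows, against 57.6% and 38.4%, so the LPS split share was there below that of regions with 1 peak of each list. TATAAA was found in 2.59% and 3.61%, against 5.51% and 12.7%.

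CCAAT, the box of NF-Y, was more frequent at these starts. It was found on either strand in 103 LPS split windows (53.4%) and 43 PBS split windows (51.8%), against 35.9% in regions with 1 peak of each list and 38.5% of all windows. Over all 468 and 183 starts in split regions, wherever the gap lay, the shares were 46.2% (LPS split) and 45.9% (PBS split). These sets include the starts with a gap just upstream. They therefore do not show how much of the excess lies at the other starts. Within the 150 bases just upstream of the start, where most gap centres lay, it was found in 46.1% of LPS split and 43.4% of PBS split windows, against 26.1% and 26.6%. CCGGAAG, bound by ETS factors, was found in the whole windows in 27.5% and 25.3%, against 17.8% and 11.7%. The bases of the gap had a median GC content of 62.6%, and the rest of the window 62.7%, in 186 LPS split windows with 20 or more gap bases, and 91 of these gaps were richer than the rest. In 75 PBS split windows the medians were 64.3% and 61.1%, with 44 gaps richer. In regions with 1 peak of each list the stretch of 150 bases upstream of the start had 65.3% and the rest 60.7%, and it was richer in 7130 of 10237 windows. A match of letters is no evidence of binding.

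H3K9me3, a mark of silenced chromatin that was not used by the rule, was listed on few members. An H3K9me3 peak of the LPS library met 75 LPS split members (14.6%, 11.6 to 17.9) and 44 PBS split members (15.8%, 11.7 to 20.6), against 20.3% of regions with 1 peak of each list. A peak of the PBS library met 66 (12.8%, 10.1 to 16.0) and 25 (8.96%, 5.88 to 12.9), against 15.8%. All 4 shares were below those of regions with 1 peak of each list, and for PBS split members with LPS peaks and LPS split members with PBS peaks the interval reached that share. Of the H3K9me3 tags, 1.61% in LPS and 1.67% in PBS lay in peaks.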

How the data were processed

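H3K4me3 and H3K9me3 libraries of LPS-treated and PBS-treated macrophages were used, 1 for each mark and treatment. MACS 1.4.2, Bowtie 0.12.8, CASAVA 1.4, DiffBind and build mm10 are named in the submitters' processing notes. Peaks were called library by library without a control, at p 1e-05 and with 1 tag kept per position, per the file headers. The deposited tables give each peak's tag count, its score (minus 10 times the base 10 logarithm of p) and a fold over background, which is the caller's ratio. Fold was not compared.

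Peaks were merged with Python 3.11.15 and pandas 2.3.3, and the merging was checked with bedtools 2.31.1 and on simulated lists. Tags were divided by filtered library totals. Gene ends came from the RefSeq gene table and starts from the RefSeq promoter table, both GRCm38.p6; 21631 protein-coding genes and 21045 promoters entered. Intervals are 95% Clopper-Pearson or rank intervals. With 1 library per group nothing was tested.

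The members and gene lists were chosen with earlier results of these data known. Named genes have an end within 1 kb of a gap centre and are, per direction, the 8 members with the most tags, the 4 with the longest gap, the 4 with the most peaks and members of 8 lists; 1 of them is not reported here. Alternatives changed merging, limits, threshold, windows and scaling.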

Additional observations from a re-analysis of the deposited data

How the results depend on the processing

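No paired analysis was possible because each group has 1 library. Values are given for LPS split and then PBS split members. With peaks up to 100 bp apart merged, 51.6% of members were LPS split and PBS split members numbered 524. With 300 bp, 45.5% were LPS split, PBS split members numbered 744, median gaps were 95 and 91.5 bp, 43.2% and 44.8% of gap centres lay within 500 bp of a gene end and 33.6% and 32.8% lay 0 to 250 bp upstream of a start, so the difference between directions turned for gene ends and narrowed for starts. With scores of 100 or more, counts were 185 and 112, the LPS split median gap 93 bp, shares within 500 bp 64.3% and 61.6%, and upstream shares 52.5% and 50%. With 200 tags, the PBS split shares were 48.6% and 38.5%, and the stronger peak held 66.7%. Equal lists gave 68.8% LPS split. Gaps of at least 100 bp gave 210 and 75 members (73.7% LPS split), and of at least 200 bp 56 and 17 (76.7%).

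Windows of 250 and 1000 bp gave 43.9% and 62.3% in LPS split, 32.6% and 49.1% in PBS split, and 15.5% and 58.3% in regions with 1 peak of each list. With all genes of the table, the median distance was 716.5 bp in PBS split members and 638.5 bp in regions with 1 peak of each list. Median log2 ratios were -0.24 and -0.18 per covered kb, and -0.10 and -0.017 centred on all shared regions. Chosen after seeing the data were the alternatives for the upstream share. With the nearest gene in the start table it was 45.5% and 36.7%, against 6.05% in regions with 1 peak of each list. In PBS split members whose weaker peak scored 60 or more it was 36.8%. In regions with 1 peak of each list it was 6.25% at 1.5 to 3 kb and 3.99% within 150 bp. The cause of these differences was not tested. Of 119 recomputed values, 76 stayed within the interval of the reported one or, for counts, within 1.5 times it. The share of members that were LPS split changed direction in 1 of them. Only that result was checked for a change of direction, so turns in other results are not in this count. The effect of depth on the weaker peaks was not tested.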
